A study of Mus musculus with 34 samples.

Results

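The major urinary protein genes were followed on 34 Agilent 2-colour arrays of mouse liver and liver tumor RNA. A probe was taken as a member when its gene name in the scanner files began with Mup and a digit, which gave 9 of the 41174 probes that were not controls, under 8 of the 28090 gene names on the array: Mup1, Mup3 (with a pair of probes), Mup4, Mup5, Mup6, Mup8, Mup9 and Mup10. All 9 passed the filter on dim probes, as did 32788 probes in all. The family was chosen by measured values, its low level in Myc tumors against controls, livers with Myc off and TGFα/Myc tumors on these arrays. Every comparison of Mup probes with the Myc tumors is therefore given here as a description, without a p-value. Where Mup probes past the limma threshold are counted in such a comparison, nothing is read from the count.

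Sample RNA was labelled with Cy3, and a pooled reference from C57BL/6 mice of mixed gender, labelled as liver, with Cy5. A value is log2 of sample over reference, so 0 is the level of the pool. Control livers (n = 3) carried no transgene and had no doxycycline. Tumors were taken with the transgene on (0 weeks on doxycycline) and carried c-Myc (n = 7), TGFα (n = 3) or both (n = 3). Each of these genotypes was also sampled as liver after the transgene had been shut off by doxycycline for 4 or 12 weeks (n = 3 for each genotype and time). Myc tumor, Myc off 4 weeks and so on name these groups. The labels used here give no sex, age, sample strain or promoter of the transgenes, and no doxycycline was given to the controls, so doxycycline and transgene history cannot be told apart in an off liver set against a control.

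Major urinary proteins are small lipocalins that hepatocytes secrete and that carry pheromones into the urine. Their genes lie in 1 cluster of near copies on chromosome 4 of the mouse, and male mice make far more of the proteins than females. The male pattern of growth hormone pulses, acting through the growth hormone receptor and STAT5b, and androgen drive this difference. Mup5 differs from the urinary proteins proper in that glands outside the liver are also known to make it.

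RefSeq lists 22 genes with a Mup number (GRCm38.p6), all 22 on chromosome 4, so a probe can catch several of them. The Mup1 probe lists transcripts of Mup1, Mup15 and Mup12 in the files, and the Mup8 probe lists transcripts of Mup1. The Mup1 and Mup6 probe sequences are shown because they mark how far members overlap, and that of Mup5 because it begins with ATG. Capitals in the Mup1 probe are the 31 bases it has in common with the Mup8 probe, capitals in the Mup6 probe the 19 bases it has in common with the Mup10 probe, and capitals in the Mup5 probe an ATG at its first bases.
Mup1: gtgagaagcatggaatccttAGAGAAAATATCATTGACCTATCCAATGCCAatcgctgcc
Mup6: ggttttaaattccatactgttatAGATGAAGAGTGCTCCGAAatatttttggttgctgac
Mup5: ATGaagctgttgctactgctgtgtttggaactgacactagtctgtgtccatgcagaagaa
Of the 36 pairs of member probes, 2 had a common run of 15 bases or more, and the median longest run was 6 bases. Mup1 with Mup8, and Mup6 with Mup10, are therefore not independent readings. A short run does not make other pairs independent, since the Mup3 probes, named for the same gene, share a run of only 5 bases. Names also moved between files: the probes called Mup6, Mup8 and Mup9 carry those names in 6 files, those of Myc tumors 2 to 7, and older names in the others, where the Mup9 probe is described as Mup2. Mup10 is so named in 3 files.

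RefSeq's table of gene starts held 14 Mup genes. Mup3, Mup4 and Mup6 are those whose own accession is listed for a member probe. Windows of Mup9 and Mup10 are in the table too, but the probes of those names were not matched to a RefSeq accession. The 250 bases upstream of the start of Mup3, Mup4 and Mup6 are shown because the members were high and low on the same arrays; capitals mark ATCAAT, a core motif of HNF6 (Onecut1), and the TATA box TATATAA (GRCm38.p6, written along the gene's strand).
Mup3 (chr4:62087318-62087567, minus strand): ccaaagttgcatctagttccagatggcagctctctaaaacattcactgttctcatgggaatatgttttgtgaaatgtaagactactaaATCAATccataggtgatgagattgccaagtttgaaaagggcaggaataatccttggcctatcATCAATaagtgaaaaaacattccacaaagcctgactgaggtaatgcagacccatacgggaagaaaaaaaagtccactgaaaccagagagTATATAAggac
Mup4 (chr4:59960668-59960917, minus strand): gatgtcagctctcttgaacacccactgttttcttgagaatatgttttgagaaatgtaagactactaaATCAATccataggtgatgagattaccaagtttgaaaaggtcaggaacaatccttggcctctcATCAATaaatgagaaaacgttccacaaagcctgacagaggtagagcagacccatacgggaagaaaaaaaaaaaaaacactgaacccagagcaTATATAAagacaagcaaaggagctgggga
Mup6 (chr4:60003231-60003480, plus strand): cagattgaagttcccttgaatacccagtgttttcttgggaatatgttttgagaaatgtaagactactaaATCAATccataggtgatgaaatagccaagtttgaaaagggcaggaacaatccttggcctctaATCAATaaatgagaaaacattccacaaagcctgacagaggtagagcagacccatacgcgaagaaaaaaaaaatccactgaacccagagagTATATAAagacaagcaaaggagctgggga
ATCAAT, searched on both strands, was found in 14 of 14 Mup windows and in 6.72% of the 32851 windows of this length. TATATAA was found in 11 of the 14 and in 3.04% of all windows. The STAT5 motif TTCNNNGAA was in 0 of the 14 and in 7.02% of all windows, and the C/EBP motif TTGCNNAA in 0 of the 14 and in 9.56%. The printed windows share runs of 37 to 50 bases, so they are not independent, and a match in letters is not a measured binding site.

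Before the values, the arrays that stood apart are named. On TGFα tumors 2 and 3 and TGFα off 4 weeks 1 the reference had another profile: hepatocyte markers in Cy5 reached percentiles 66.8 to 77.6 of all probes, against 99.5 to 99.9 on the other 31 arrays, and intestine markers percentile 99.7. These 3 arrays were left out of the fit. Their Mup1 ratios of 4.97, 1.26 and 3.01 are against a pool low in liver RNA and are not comparable with the rest. Labels were checked with the 3 Myc probes. A_52_P108346 ranged from 1.04 to 6.25 over Myc tumors and from -1.07 to 1.35 over the 20 controls and off livers. A_52_P278549 ranged from 0.10 to 4.66 over Myc tumors and from -0.19 to 0.50 over those livers. A_51_P102096 did not separate them, at -0.96 to 0.43 against -0.54 to 1.94. At A_52_P108346 and A_52_P278549 Myc tumor 5 read 1.04 and 0.10, and the array labelled TGFα/Myc tumor 3 read 0.83 and 0.07, both within or close to the livers, whereas the array labelled TGFα tumor 1, which should carry no Myc transgene, read 3.28 and 3.55. The arrays labelled TGFα/Myc tumor 3 and TGFα tumor 1 lay on the same slide and scan day. Labels were kept, and the medians of comparisons that rest on TGFα/Myc tumor 3 or Myc tumor 5 are given with and without them. Myc tumors 2 to 7 were scanned on another scanner than all other arrays and read with the later scanner software, so for these 6 tumors scanner and group cannot be told apart. Myc tumor 1 shared its scanner and scan day with control 2. Hepatocyte markers stood at percentile 98.02 or higher of the sample channel on all 31 arrays of the fit, and 43.7% to 71.9% of probes were well above background per array.

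Brightness limits several values. The Mup1 spot was saturated in Cy3 on 11 of 34 arrays, all 3 controls among them, and in the Cy5 reference on 25. Of the 9 probes, 7 were saturated in the reference on 13 to 25 arrays. A ratio with only the sample spot saturated is a lower bound, and a ratio with only the reference spot saturated an upper bound. A spot saturated in both channels gives no bound. Mup9 was saturated in neither channel on any array, but was not well above background in 2 of 7 Myc tumors.

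Mup1 encodes an abundant urinary form. Its control values were -0.54, 1.20 and 1.96. In the 7 Myc tumors Mup1 ran from -9.87 through a median of -6.40 to -5.28, and no tumor came near a control. From the Cy3 channel scaled between arrays, with the controls saturated, the group mean of Mup1 was at least 140.5-fold lower in Myc tumors than in controls. That scaling uses both channels, so the bound is approximate. After Myc had been off for 4 weeks Mup1 read 0.79, 0.55 and 0.36, inside the control range, and after 12 weeks -1.09, -0.85 and 1.02. Controls 2 and 3 and Myc off 4 weeks 1 and 3 were saturated in both channels. Those ratios give no bound, so how close the 4-week livers lie to controls cannot be read from Mup1. TGFα/Myc tumors spread widely, at -4.75, -2.26 and 0.70. Their off livers read -1.25, -1.51 and 0.13 at 4 weeks and -2.31, -0.36 and 0.14 at 12 weeks. TGFα off livers gave -1.81 and -2.96 at 4 weeks and -2.04, -1.20 and 0.56 at 12 weeks. The array labelled TGFα tumor 1 stood at -5.24, as low as the highest Myc tumors.

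Mup5 was saturated in Cy3 on a single array, TGFα/Myc off 4 weeks 3. The controls read -0.09, 0.56 and 1.26. Myc tumors ran from -9.09 through a median of -7.44 to -6.10, which leaves a wide gap below the lowest control. The log2 difference of Myc tumors from controls was -8.07 ± 0.95 (SE) at Mup5. Its reference spot was saturated on 2 of 3 controls and 1 of 7 tumors, so those ratios are upper bounds and no fold is given. Livers with Myc off read 0.44, -0.49 and -0.51 at 4 weeks and -1.57, -0.73 and 1.21 at 12 weeks. Both groups overlapped the controls. TGFα/Myc tumors read -6.01, -4.53 and -1.15, all below the controls, and their off livers -2.16, -2.79 and 0.13 at 4 weeks and -3.57, -0.95 and -0.48 at 12 weeks. TGFα off livers read -3.30 and -4.49 at 4 weeks and -3.90, -2.70 and 0.14 at 12 weeks. At 4 weeks both arrays were below every control, and at 12 weeks the third array overlapped them.

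The Mup9 probe, described as Mup2 in the older files, read 0.24, 0.12 and 1.26 in controls. Its Myc tumors ran from -7.83 through a median of -6.80 to -4.63, with 5 of 7 spots well above background, and the log2 difference from control was -7.15 ± 0.73 (SE). On the deposited LogRatio, turned to log2 of sample over reference, its group means were -8.94 in Myc tumors and 0.54 in controls. The size of the Mup9 difference therefore depends on the scale. Myc off livers read 0.56, -0.42 and -0.35 at 4 weeks and -1.11, -0.92 and 1.06 at 12 weeks. TGFα/Myc tumors read -4.07, -3.99 and -2.01, and livers after 4 weeks off -0.71, -0.40 and 0.99, so these groups did not overlap. At 12 weeks off the same genotype read -3.49, -1.35 and -0.31. TGFα off livers read -3.46 and -4.00 at 4 weeks and -2.82, -2.32 and 0.53 at 12 weeks.

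**Figure D1:**
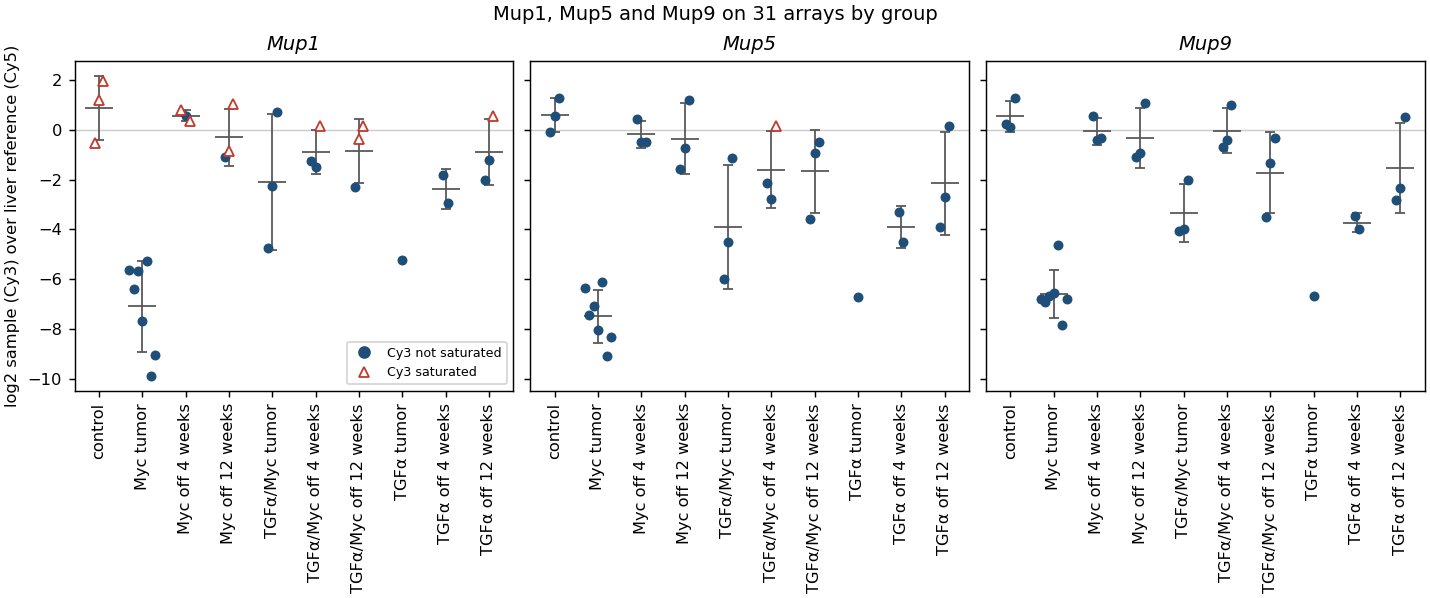
Log2 sample over liver reference of Mup1, Mup5 and Mup9 on the 31 arrays of the fit, by group; points are arrays, open triangles arrays with a saturated Cy3 spot, and bars the group mean ± SD where a group has over 1 array. All 7 Myc tumors lie below every control at the 3 genes, Myc off livers lie near the controls, and TGFα/Myc tumors spread from -6.01 to -1.15 at Mup5. At Mup1 some controls and Myc off livers were saturated in both channels, so their closeness there cannot be read.

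The remaining probes were low in the same tumors. Mup8, which in part reads Mup1, averaged 0.57 ± 0.75 (SD, n = 3) in controls and -5.67 ± 1.13 (n = 7) in Myc tumors. Mup4 went from 0.58 ± 0.77 to -3.54 ± 0.82. Its protein is found in nasal and other secretions beside the liver. The Mup6 probe fell from -0.14 ± 0.28 to -6.19 ± 1.15, but only 1 of its 7 Myc tumor spots was well above background, so its tumor level is nearly a background reading. Mup10 went from -0.00 ± 0.58 to -7.75 ± 1.04. The Mup3 probes read 0.67 ± 1.45 against -4.71 ± 1.26 (A_52_P232508) and 0.08 ± 0.51 against -3.15 ± 0.50 (A_52_P232507), in the same order. At A_52_P232507 the reference fell as low as percentile 71.3 on Myc tumor arrays, against 98.8 or higher in the other groups of the fit. Its log2 Cy3 signal was 12.60 in Myc tumor 1 and 5.77 to 8.12 in Myc tumors 2 to 7. Low signal in both channels therefore limits its tumor ratios. Over the 9 probes the log2 difference of Myc tumors from controls ranged from -8.07 to -3.23 with a median of -6.23, beside a median of 0.00034 over all probes. The ranges of the 2 groups were apart at 9 of 9 probes, and 9 of 9 were lower past the limma fit's threshold, as were 15.4% of all probes (33.9% either way). This contrast chose the genes, so nothing is read from either count. The share of all probes with ranges apart was not counted, here or in the comparisons below. On the scan day that held both groups, with 1 array each from the same scanner, the median was -6.85. Without Myc tumor 5 it was -6.41. Markers of several cell types moved with these tumors: the median log2 ratio over 9 measured hepatocyte markers of 11 ran from -2.74 to 0.05 in Myc tumors and from -0.20 to 0.81 in controls, that of 5 endothelial markers from -2.02 to -0.81 against -0.22 to 0.16, and that of 5 Kupffer and macrophage markers from -2.41 to -0.98 against -0.86 to -0.14. Their part in the Mup values was not tested, and in bulk RNA fewer cells of a type and less RNA per cell cannot be told apart.

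In the TGFα/Myc tumors replicate 1 was lowest and the array labelled replicate 3 highest at every Mup probe. Mup6 read -7.22, -5.13 and -1.79 against -0.11, -0.43 and 0.13 in controls, with no overlap. Mup10 read -7.21, -4.96 and -1.32 against -0.55, -0.05 and 0.60, again with no overlap. Mup4 read -3.26, -2.37 and 0.39 against -0.23, 0.69 and 1.30, where the third tumor lay among the controls. Mup8 read -3.82, -2.41 and -0.17, and probe A_52_P232508 of Mup3 -3.62, -2.05 and 0.43, each with the third tumor inside the control range. The other Mup3 probe read -2.85, -2.11 and -0.99, below the lowest control at -0.45.

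Off livers of one group often held low and control-like arrays side by side. In TGFα/Myc off 12 weeks Mup6 read -3.46, -1.61 and -0.66, Mup4 -3.06, -0.76 and -0.05, and Mup8 -2.89, -0.83 and 0.08, with the first array lowest each time. In TGFα/Myc off 4 weeks Mup6 read -2.10, -2.62 and 0.31 and Mup10 -2.13, -2.54 and 0.16. The third array, with most of its spots saturated, was the highest there. TGFα off 4 weeks gave -2.79 and -4.02 at Mup6, -2.82 and -4.10 at Mup10 and -1.67 and -2.16 at Mup4, and both livers were below every control at each.

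The 3 probes described as major urinary protein without a number read alike. AI313989 gave -0.29, -0.31 and -0.11 in controls, -5.38, -4.76 and -1.62 in TGFα/Myc tumors and -3.24 and -4.57 in TGFα off 4 weeks. ENSMUST00000084544 gave -0.51, 0.21 and 0.68 in controls and -4.38, -3.61 and -0.98 in TGFα/Myc tumors. TC1755975 gave -0.24, 1.18 and 1.94 in controls and -4.49, -3.01 and 0.24 in TGFα/Myc tumors, where the third tumor overlapped the controls.

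In the sample channel alone the Mup1 spot lay at percentile 96.2 or higher of all probes over controls and off livers and between 67.0 and 87.1 in Myc tumors. Mup9 lay between 76.0 and 98.4 in controls and off livers and between 36.5 and 50.7 in Myc tumors. The tumors' low ratios were therefore also seen without the reference.

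By group mean, Mup5 ran from control (0.58 ± 0.68, SD) through Myc off 4 weeks (-0.19 ± 0.55), Myc off 12 weeks (-0.36 ± 1.43), TGFα/Myc off 4 weeks (-1.61 ± 1.54), TGFα/Myc off 12 weeks (-1.67 ± 1.67), TGFα off 12 weeks (-2.15 ± 2.08), TGFα/Myc tumor (-3.90 ± 2.49) and TGFα off 4 weeks (-3.90 ± 0.84) to Myc tumor (-7.49 ± 1.07). Of the 8 neighbouring pairs in this order, 2 were separated by more than the larger SD and 1, TGFα off 4 weeks and Myc tumor, had ranges that did not overlap. At Mup1 that pair alone was separated by either measure. At Mup9 a gap of 2.87 set it apart likewise, as did 1 further pair beyond the larger SD.

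**Figure D2:**
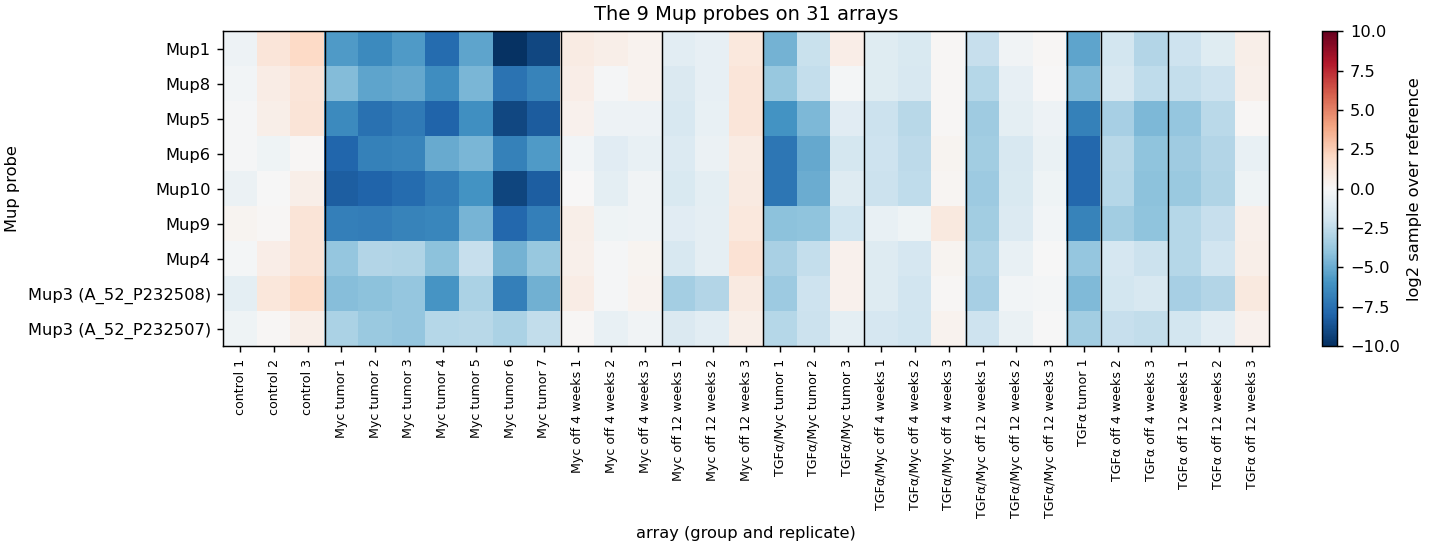
Log2 sample over reference of the 9 Mup probes (rows) on the 31 arrays of the fit (columns, ordered by group); blue is below and red above the liver reference. Columns are alike from top to bottom: Myc tumors and the array labelled TGFα tumor 1 are blue at every probe, and within the off groups single arrays differ from their neighbours at all probes together.

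Members were high and low on the same arrays. Pearson's r between pairs of the 9 probes had a median of 0.94 (0.83 to 0.99, 36 pairs) over the 31 arrays and of 0.93 (0.71 to 0.99) over the 20 controls and off livers. Within the 7 Myc tumors the median was 0.64 and the lowest pair -0.39. That pair was Mup1 with probe A_52_P232507 of Mup3, whose tumor ratios are limited by low signal. These are descriptions: the points share arrays and a reference, and some probes share sequence.

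The return of Mup RNA after Myc was shut off is a description as well, because the Myc tumors chose the genes. At 4 weeks the 9 probes were higher than in Myc tumors by 2.83 to 7.66 (median 5.96, log2), and 9 of 9 had ranges apart. Of all probes 12.4% were called higher in this comparison and 29% either way. Mup5 stood 7.30 ± 0.95 (SE) and Mup9 6.53 ± 0.73 above the tumors. At 12 weeks the median was 5.82 (2.53 to 7.23) and 8 of 9 had ranges apart, with 13.2% of all probes called higher and 28.1% either way. Probe A_52_P232508 of Mup3 was the exception: at 12 weeks it read -3.40, -2.91 and 0.92, and the lowest liver lay inside the Myc tumor range of -6.83 to -3.20. Without Myc tumor 5 the medians were 6.14 at 4 weeks and 6.09 at 12 weeks. TGFα/Myc tumors were higher than Myc tumors by 1.17 to 4.99 (median 3.25), with 4 of 9 ranges apart, and 6 of 9 were called higher, where 10.3% of all probes were called higher and 22.8% either way. This contrast too chose the genes, so nothing is read from those counts. The median was 1.87 without the array labelled TGFα/Myc tumor 3 and 3.56 without Myc tumor 5.

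The choice of genes did not use the difference between TGFα/Myc tumors and controls, but it used both groups, each against Myc tumors, so this test is not independent of the choice. By limma, at an adjusted p under 0.05, 4 of 9 Mup probes were lower: Mup9 (-3.90 ± 0.87, adjusted p = 0.0217), Mup6 (-4.57 ± 1.07, adjusted p = 0.0293), Mup5 (-4.48 ± 1.13, adjusted p = 0.0440) and Mup10 (-4.49 ± 1.14, adjusted p = 0.0450). Of all probes 0.741% were called lower and 1.51% either way. Mup6 and Mup10 share a run of sequence and count as little more than 1 reading. By its ratio Mup1 had a limma adjusted p of 0.266, and its groups overlapped. From the Cy3 channel scaled between arrays, its group mean was at least 6.64-fold lower. That scaling uses both channels, and the Mup1 reference spot was saturated on 3 of 3 tumors and 2 of 3 controls, so the bound is approximate. The Mup3 probes, Mup4 and Mup8 had limma adjusted p from 0.119 to 0.438. All 9 differences were below 0 (median -2.98) and 5 of 9 had ranges apart, a count that was not made over all probes. The calls did not hold under several other fits: 0 of 9 passed with slide as a random block (median -2.64), with only these groups in the fit, with median centring or with all 34 arrays, and 1 passed with scan day as a block. The correlation within a slide was 0.446.

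The TGFα/Myc tumors were widely spread. Replicate 1 was lowest at 9 of 9 probes and the array labelled replicate 3, whose Myc probes read near liver level, highest at 9 of 9. Without that array the median difference was -4.38 and 8 of 9 probes were called lower. Without tumor 1 it was -1.86 with 0 called, without tumor 2 -2.90 with 0 called, and 0 or 1 probe was called when any control was left out. On the scan day that held 2 of these tumors and control 1, the median was -2.97 (-6.06 to -1.87). The median over endothelial markers ranged from -0.54 to 0.24 in these tumors and from -0.22 to 0.16 in controls, and hepatocyte markers from -0.61 to 0.99 against -0.20 to 0.81. Kupffer and macrophage markers ranged from -2.11 to -0.37 against -0.86 to -0.14. The part of cell makeup in these Mup values was not tested.

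**Figure D3:**
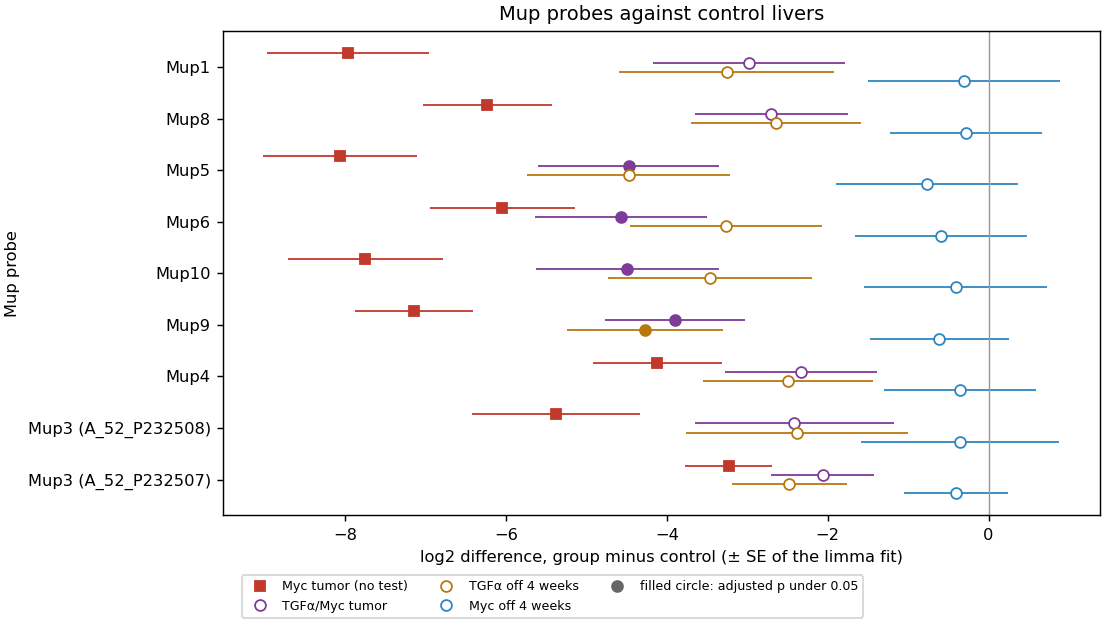
Log2 difference from control livers (± SE of the limma fit) of each Mup probe in Myc tumors (squares, no test), TGFα/Myc tumors, TGFα off 4 weeks and Myc off 4 weeks; filled circles passed an adjusted p of 0.05. Myc tumors lie from -8.07 to -3.23, TGFα/Myc tumors from -4.57 to -2.06, TGFα off 4 weeks from -4.48 to -2.39, and Myc off 4 weeks within an SE of 0.

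After both transgenes had been off for 4 weeks, 1 of 9 Mup probes was higher than in TGFα/Myc tumors: Mup9, by 3.31 ± 0.87 (9.94-fold, limma adjusted p = 0.0213), where 3.46% of all probes were called higher and 6.5% either way. Mup6 was next (3.25 ± 1.07, adjusted p = 0.0713), and the 9 differences were all above 0 with a median of 1.23. Without the array labelled TGFα/Myc tumor 3, 4 probes were called; without tumor 1 or 2, or without off liver 2 or 3, 0 were. The groups shared no slide or scan day, and 0 passed with slide or scan day as a block. TGFα/Myc tumors were used in the choice of genes, so tests against them are not independent of it. At 12 weeks 0 of 9 probes passed by limma (median 1.26, 0.46 to 2.81), where 3.37% of all probes were called at an adjusted p under 0.05. At an unadjusted p under 0.05 there were 2. Here and below, shares of all probes called are at the adjusted threshold, and shares at the unadjusted one were not counted. Without tumor 3 the median was 2.31 with 2 called. Off liver 3 at 4 weeks had 7 of its 9 Mup spots saturated in Cy3.

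Against controls, the off livers passed the test at a single probe. Controls and Myc off livers were both high groups in comparisons that chose the genes, so how close they lie is not independent of the choice. Tests of other groups against the controls also draw on values that the choice used. Several of these arrays were saturated in both channels at Mup1, whose ratios there give no bound. In Myc off 4 weeks the 9 differences ran from -0.77 to -0.28 (median -0.40), 0 passed by limma and 0 had an unadjusted p under 0.05, where 0.00305% of all probes were called. Mup5 differed by -0.77 ± 1.13 and Mup9 by -0.61 ± 0.87 (SE), both smaller than their error. Myc off 12 weeks gave a median of -0.91 (-2.47 to -0.22), with 0 of 9 called by limma and 0 at an unadjusted p under 0.05 (0.134% of all probes called). TGFα/Myc off 4 weeks gave -1.48 (-2.19 to -0.59) with 0 called by limma and 0 unadjusted under 0.05, although 5.53% of all probes were called. TGFα/Myc off 12 weeks gave -1.87 (-2.26 to -1.02), with 0 called by limma and 1 unadjusted under 0.05 (0.0152% of all probes called). Leaving out 1 array moved these medians widely: from -0.76 to -0.11 for Myc off 4 weeks, from -1.70 to -0.34 for Myc off 12 weeks, from -2.21 to -1.10 for TGFα/Myc off 4 weeks and from -2.47 to -0.99 for TGFα/Myc off 12 weeks, with 0 called each time. With the Y-linked and Xist score described further on as a covariate, the median for Myc off 12 weeks was -0.17. That score was below 0 in 2 of 3 livers of Myc off 12 weeks and of TGFα/Myc off 4 weeks. It was below 0 in 1 of 3 controls and in 1 of 3 livers of the other groups named here. Medians with the covariate are not given for those other groups or for TGFα/Myc off 4 weeks. All differences of off livers from controls were below 0, in comparisons that share the same 3 controls.

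TGFα off livers were the furthest from controls. At 4 weeks, with 2 arrays in the fit, 9 of 9 probes lay below every control with a median of -3.26 (-4.48 to -2.39). The probes moved together and the share of all probes below every control was not counted, so nothing is read from that count. Controls were a high group in the choice of genes, so the test against them is not independent of it. By limma 1 passed: Mup9, -4.27 ± 0.97 (19.3-fold lower, limma adjusted p = 0.0377), where 0.494% of all probes were called lower and 0.677% either way. Mup5 was lower by as much (-4.48 ± 1.26) with an adjusted p of 0.0986. Both TGFα livers had Y-linked RNA below the pool and Xist above it, as had control 1 but not controls 2 and 3. The Mup9 call was lost (0 of 9, median -2.10) with that score as a covariate, with slide or scan day as a block, and also without either TGFα liver or without control 2 or 3. At 12 weeks the median was -2.08 (-2.73 to -0.89), with 0 of 9 called by limma and 0.0213% of all probes called. At an unadjusted p under 0.05 there were 5 of 9, a count that was not made over all probes. Leaving out 1 array gave medians from -3.11 to -1.44.

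Between 4 and 12 weeks off, 0 of 9 Mup probes changed by limma in any genotype. The median change was -0.30 for Myc (0 unadjusted under 0.05, 0.00305% of all probes called), -0.31 for TGFα/Myc (0 and 1.07%) and 1.07 for TGFα (2 and 1.19%). Tests of the difference between these changes gave 0 of 9 for TGFα/Myc minus Myc (lowest adjusted p = 0.772, 0.436% of all probes called by limma) and 0 of 9 for TGFα minus Myc (lowest adjusted p = 0.422, 0.839% called). Off livers of different transgenes were then compared. TGFα off 4 weeks lay below Myc off 4 weeks at 9 of 9 probes without overlap (median -2.67), but 0 passed by limma (lowest adjusted p = 0.143, 0.281% of all probes called). At an unadjusted p under 0.05 there were 7, and neither this count nor that of ranges apart was made over all probes. Neither TGFα nor TGFα/Myc off 4 weeks shared a slide or scan day with Myc off 4 weeks, so batch and transgene cannot be told apart. Scores of Y-linked RNA and Xist were -2.91 and -2.42 in TGFα off 4 weeks and 5.32, -2.52 and 3.01 in Myc off 4 weeks. Myc off livers were a high group in the choice of genes, so these tests are not independent of it. TGFα/Myc off 4 weeks differed from Myc off 4 weeks by a median of -1.12 with 0 called by limma and 0 unadjusted under 0.05 (1.61% called), and at 12 weeks TGFα/Myc and TGFα differed from Myc by medians of -0.92 and -1.01, with 0 called of the Mup probes and 0% of all probes, and 0 Mup probes unadjusted under 0.05.

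Over the off and control livers the medians of the Mup values differed with the sex-linked RNA of the arrays. A score, the mean log2 value of Y-linked Ddx3y, Eif2s3y, Kdm5d and Uty minus that of Xist, fell into 10 livers from -4.23 to -2.18 and 10 livers from 1.00 to 7.15. Mup5 ran from -4.49 through a median of -2.48 to -0.09 in the first set and from -2.70 through 0.14 to 1.26 in the second. Mup1 had medians of -1.38 and 0.46, and Mup9 of -1.01 and 0.33. In the 6 groups that held livers of both kinds, every liver with a score below 0 was lower than every liver above 0 in 50 of 54 group and probe pairs, the exceptions lying in control and Myc off 4 weeks, where 7 of 9 probes showed it. The 9 probes moved together over these livers (median r 0.93), so the 54 pairs are not independent readings. Each of the 6 groups held 3 livers, and how many of all probes were ordered in this way was not counted. Nothing is therefore read from the 50 of 54. TGFα off 12 weeks 2 combined a score of 3.94 with a Mup median of -2.32. No pooled correlation is given because the scores form separate clusters. Tumors had scores from -1.69 to 6.77. Myc tumors 1 and 3, at 6.41 and 5.07, had Mup medians of -5.64 and -5.69. Myc tumor 6, at -1.59, had a median of -7.40, and Myc tumor 5, at -0.13, had -4.59. The relation of score and Mup RNA within tumors was not tested. With the score as a covariate the median difference of Myc tumors from controls was -6.35 and of TGFα/Myc tumors -2.75, with 4 of 9 called as before.

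**Figure D4:**
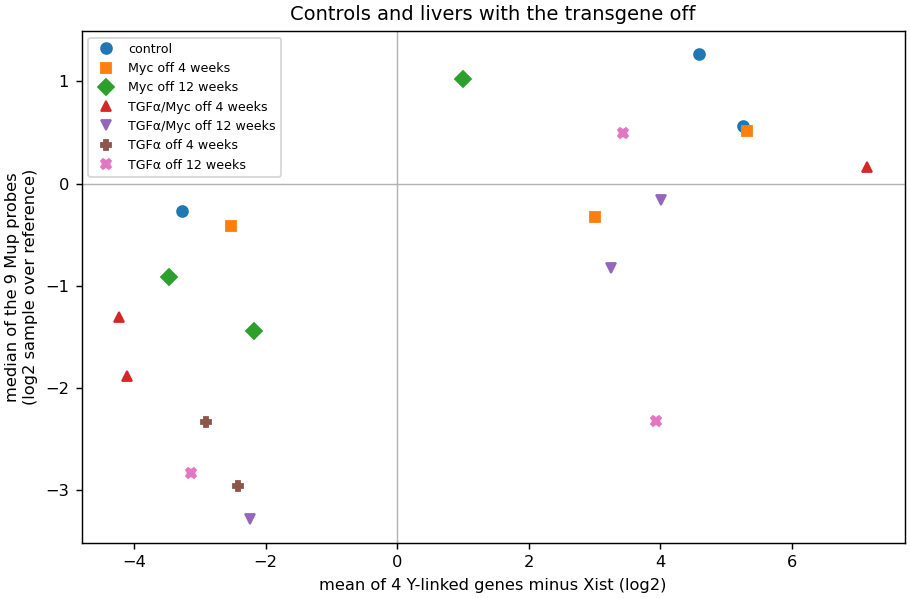
Median of the 9 Mup probes (log2 sample over reference) against the mean of 4 Y-linked genes minus Xist (log2) in the 20 control and off livers, with a marker per group. Livers at negative scores have Mup medians of -0.27 or lower, and those at positive scores reach 1.26, with TGFα off 12 weeks 2 low at -2.32.

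Genes most like each member were ranked by Pearson's r over the probes of 22537 genes on 31 arrays. No p is given since all points share arrays and reference. The first 5 are named here for Mup1, Mup5 and Mup9. Mup1 was followed by Ces3b, a carboxylesterase (r = 0.97), the probe TC1755975 (0.96), NAP102507-1 (0.96), A_51_P305453 (0.96) and Adra1b, an adrenergic receptor (0.96). Mup5 was followed by NAP102507-1 (0.98), ENSMUST00000084544 (0.98), TC1755975 (0.97), AI313989 (0.96) and Cyp7b1, the oxysterol hydroxylase of the acidic bile acid pathway (0.96). Mup9 was followed by NAP102507-1 (0.96), BC024137 (0.95), Kmo, a kynurenine hydroxylase (0.95), AI313989 (0.95) and ENSMUST00000084544 (0.95). TC1755975, AI313989 and ENSMUST00000084544 are the 3 probes described as major urinary protein without a Mup number, and they took 18 of the 45 places; ENSMUST00000084544 shares a run of 20 bases with the Mup10 probe and NAP102507-1 a run of 17 with that of Mup6. Over the 20 control and off livers Phyh, a peroxisomal oxidase, C530036F05Rik and Timm17a joined the lists (r from 0.85 to 0.99 over all places).

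Other sex-biased liver genes were counted from lists. Of 21 measured male-biased genes, 15 were lower in Myc tumors than in controls (median -2.98, all genes -0.012), beside 16.4% of all genes. In TGFα/Myc tumors 0 of 21 passed in either direction by limma (median -1.39), where 0.981% of all genes were higher and 0.831% lower. The nearest were Ugt2b38, a glucuronosyltransferase (-1.95 ± 0.57, adjusted p = 0.0886), Sult5a1, a sulfotransferase (-1.39 ± 0.41, adjusted p = 0.0902), and Ugt2b1 (-2.08 ± 0.62, adjusted p = 0.0979). Cyp7b1 differed by -3.27 ± 0.98 (adjusted p = 0.101), close to the Mup probes in size. In TGFα off 4 weeks 1 of 21 was lower, Sult5a1 (-2.06 ± 0.45, adjusted p = 0.0332), and the median was -1.59, beside 0.545% of all genes that were lower. Of 18 measured female-biased genes 5 were lower in Myc tumors (median -2.53), 1 in TGFα/Myc tumors and 0 in TGFα off 4 weeks, where their median was 1.90. The gene lower in TGFα/Myc tumors was Ntrk2, a neurotrophin receptor (-4.38 ± 0.83, adjusted p = 0.00679).

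Of 20 genes of growth hormone signalling and liver transcription factors, 13 were lower and 0 higher in Myc tumors (median -1.25), beside 16.4% of all genes lower and 18.1% higher. The growth hormone receptor gene Ghr averaged 0.14 ± 0.27 (SD) in controls, -2.27 ± 0.62 in Myc tumors and -1.69 ± 0.79 in TGFα/Myc tumors. It was the 1 of 20 that passed in TGFα/Myc tumors (-1.83 ± 0.36, SE, limma adjusted p = 0.00990), where 0.831% of all genes were lower. Cebpa, a hepatocyte factor (-1.31 ± 0.38, adjusted p = 0.0924), Igfals, the acid-labile subunit that carries IGF1 (-0.97 ± 0.30, adjusted p = 0.110), and Onecut1, which encodes HNF6 (-0.62 ± 0.28, adjusted p = 0.338), did not pass. Onecut1 averaged 0.21 ± 0.51 in controls, -2.71 ± 0.42 in Myc tumors and -0.23 ± 0.016 in TGFα off 4 weeks. In TGFα/Myc off 4 weeks Stat5a was lower (-1.21 ± 0.35, adjusted p = 0.0454) and Hnf4a higher (0.65 ± 0.19, adjusted p = 0.0476), where 2.50% of all genes were lower and 2.97% higher.

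Lipocalins outside the family were counted last. Of 12 measured, 4 were lower and 1 higher in Myc tumors (median -0.31), beside 16.4% of all genes lower and 18.1% higher. In TGFα/Myc tumors 2 were lower, beside 0.831% of all genes, Orm1 (-2.58 ± 0.56, limma adjusted p = 0.0187) and Orm2 (-2.45 ± 0.61, adjusted p = 0.0394), which encode the acute phase orosomucoids. C8g, of the complement membrane attack complex, differed by -0.77 ± 0.60 (adjusted p = 0.709). In TGFα off 4 weeks 1 was lower, Lcn12 (-2.69 ± 0.59, adjusted p = 0.0332), beside 0.545% of all genes that were lower.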

How the data were processed

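RNA of 34 livers or tumors was hybridised against a common pooled reference on 2-colour arrays. Spot intensities are as deposited by the authors in Agilent scanner files (Feature Extraction 9.1.3.1 or 10.7.3.1, per the file headers), with mean and background signal per channel and flags. The deposited LogRatio is log10 of Cy5 over Cy3 per the file headers. The deposited series matrix holds the authors' log2 values, whose direction, set against the scanner values, was Cy5 over Cy3, with centring unknown. The submitters' processing notes name limma.

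Here intensities were background-corrected (normexp, offset 50) and loess-normalised within array with limma 3.58.1 in R 4.3.3, outlier spots were left out, and probes were kept where Cy3 was well above background on 3 or more arrays. limma was fitted with a coefficient per group on 31 arrays, p-values were adjusted by Benjamini-Hochberg over all kept probes, and the threshold was 0.05. The script was tested on simulated data. Number of arrays limits the precision. Labels call the samples biological replicates. Same-numbered arrays did not deviate together (mean correlation 0.0364), so numbers were not used as pairs.

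Every Mup probe is named. From each gene list up to 4 genes with the smallest adjusted p in TGFα/Myc tumors or off livers against controls are named. The 5 genes most like a member are named for Mup1, Mup5 and Mup9. The members and lists were chosen with earlier results of these data known. Alternatives changed background, scaling, filter, batch, fit and arrays.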

Additional observations from a re-analysis of the deposited data

Results flagged for a closer look

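Mup9 in Myc tumor 5 read -4.63, above the other Myc tumors, which ran from -7.83 to -6.55. Its gap to the next tumor was 0.599 of the range of the group. The spot was not well above background, and by minus LogRatio the same array was the lowest of the 7, at -10.52 against -9.38 to -7.50, so its place in the group depends on the scale. In all, 9 probes were tested in this way in the 7 Myc tumors and chance marks about 1 in 20 such groups. Tests of whether changes between 4 and 12 weeks off differed between genotypes marked 0 of 18.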

How the results depend on the processing

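No comparison with Mup probes called, and none with Myc tumors or controls, changed the sign of its median. Medians between times off, with 0 called, did. Myc 12 against 4 weeks (-0.30) gave 0.19 with the score and 0.70 with median centring, TGFα (1.07) gave -0.48 with all 34 arrays and -0.03 with slide, and TGFα/Myc (-0.31) gave 0.29 with the sample channel alone, 0.50 with scan day, 0.15 with slide and 0.45 without TGFα/Myc off 4 weeks 3 and TGFα tumor 1. Leaving out 1 array gave -0.96 to 0.11 for Myc and -0.95 to 0.53 for TGFα/Myc. The TGFα/Myc minus Myc difference of changes (0.20) gave -0.82 with the score, -0.77 with median centring, a value just below 0 with minus LogRatio, and -0.43 to 1.08 leaving out 1 array. For TGFα/Myc tumors against controls (4 Mup probes called), 0 were called with all 34 arrays, with median centring, with only the groups compared and with slide as a random block, 1 with scan day as a block, 2 with a trended robust fit or no filter, and 7 with the replicate number as a block; leaving out 1 array gave 0 to 8. For TGFα off 4 weeks against controls (1 called), 0 were called with the score as a covariate, all 34 arrays, minus LogRatio, scan day, the series matrix or slide, and 4 with the replicate block; leaving out 1 array gave 0 to 1. For TGFα/Myc off 4 weeks against TGFα/Myc tumors (1 called), 3 were called with the score, minus LogRatio, no background subtraction, the replicate block, the sample channel alone or the series matrix, and 0 with all 34 arrays, only the groups compared, scan day, slide, or without TGFα/Myc off 4 weeks 3 and TGFα tumor 1 (chosen after seeing the data); leaving out 1 array gave 0 to 4. At 12 weeks (0 called) minus LogRatio gave 1, the sample channel alone 3, and leaving out 1 array 0 to 2. The replicate block gave 1 call for TGFα off 4 weeks against Myc off 4 weeks. Numbers did not pair the samples.

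Of the described medians, Myc tumors against controls moved to -8.01 with minus LogRatio and -8.13 with the series matrix, Myc off 4 weeks against Myc tumors to 7.67 and 7.75, Myc off 12 weeks to 7.02 and 6.95, and TGFα/Myc against Myc tumors to 2.22 with median centring and 2.30 with scan day, or 1.87 to 3.90 leaving out 1 array. The cause of these moves was not tested. Saturated spots bound Mup1 above all, and low signal bounds Mup6 and probe A_52_P232507 of Mup3 in Myc tumors.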
